A study of Mus musculus with 35 samples.

Results

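MicroRNAs (miRNAs) were sequenced from brown fat, labelled iBAT (interscapular brown adipose tissue), and from a fat depot labelled cWAT, in 3 libraries each. These 6 libraries, chosen by their depot labels, are 6 of the 35 samples of a study that compares miRNAs, messenger RNAs and Argonaute-bound RNAs between mouse fat depots, and the comparison covers all 485 miRNAs of the table the authors deposited. For miRNA sequencing the protocol names 13-week-old male C57BL/6J mice (the strain label reads C57BL/6). The protocol names no modified allele, and no treatment apart from the housing temperatures that follow. It names fat pads of mice kept at room temperature, and inguinal pads of mice kept at 4 °C for 1 week, without tying either to a depot label. No label spells out cWAT, so it may be that inguinal fat from the cold, and in that case depot and housing temperature cannot be told apart. No label says that the libraries came from separate animals, so the p-values measure only the spread between these libraries, which may be technical. The study holds no messenger RNA library of cWAT, so the cWAT label could not be checked against genes of white or brown fat cells.

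A miRNA is cut as a 5p and a 3p arm from a hairpin RNA, is loaded into an Argonaute protein, and pairs with messenger RNAs mainly through its seed, the bases 2 to 8 from its 5′ end; the messenger RNAs are then repressed. Brown fat burns lipid to make heat and is rich in mitochondria and capillaries, white fat stores lipid, and inguinal white fat gains heat-producing cells in the cold. miR-193b, miR-365, miR-182, miR-203, miR-378, miR-455 and miR-30 are known from the formation or function of brown fat cells, and miR-143, miR-103 and miR-107 from the formation of fat cells or their response to insulin.

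The sequences below are mature miRNAs from RefSeq (GRCm38.p6), 5′ to 3′, with the seed in capitals. Of the 485 miRNA names, 424 matched an entry with a sequence, and so did 320 of the 362 miRNAs that were tested. The miR-30 arms are shown because members with 1 seed differed between the depots to unequal degrees, and because the 3p arms of miR-30c tell its genomic copies apart.
miR-30a-5p: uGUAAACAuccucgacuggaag
miR-30c-5p: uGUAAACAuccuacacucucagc
miR-30e-5p: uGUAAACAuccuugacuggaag
miR-30c-1-3p: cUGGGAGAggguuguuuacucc
miR-30c-2-3p: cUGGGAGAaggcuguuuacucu
miR-30a-5p and miR-30e-5p differ at 1 base, C13U, counted from the 5′ end.

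The next pairs share a seed and differ at 1 base, and each is shown because its members did not differ between the depots alike or were nearly absent from 1 depot.
miR-103-3p: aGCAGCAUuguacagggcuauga
miR-107-3p: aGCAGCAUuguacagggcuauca
miR-196a-5p: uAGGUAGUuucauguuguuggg
miR-196b-5p: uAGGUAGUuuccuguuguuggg
miR-10a-5p: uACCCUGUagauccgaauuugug
miR-10b-5p: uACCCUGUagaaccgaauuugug
Counted from the 5′ end, the substitutions are G22C between miR-103-3p and miR-107-3p, A12C between miR-196a-5p and miR-196b-5p and U12A between miR-10a-5p and miR-10b-5p. The sources used here do not say how the authors assigned reads to such near-identical miRNAs. The split within each pair, and between miR-30a-5p and miR-30e-5p, is thus uncertain. Sums are given for miR-103 with miR-107, for miR-10a with miR-10b and for miR-30a-5p with miR-30e-5p.

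The last set holds the members of 1 gene cluster (miR-182, miR-96 and miR-183), which have 3 different seeds, and other miRNAs with large differences in level or share.
miR-182-5p: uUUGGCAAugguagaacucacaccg
miR-96-5p: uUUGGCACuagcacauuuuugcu
miR-183-5p: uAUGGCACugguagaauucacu
miR-378c: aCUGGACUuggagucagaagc
miR-378d: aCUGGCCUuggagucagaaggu
miR-193b-3p: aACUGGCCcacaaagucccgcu
miR-21a-5p: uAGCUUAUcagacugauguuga
miR-126a-3p: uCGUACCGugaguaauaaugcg
let-7c-5p: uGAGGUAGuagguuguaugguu
let-7i-5p: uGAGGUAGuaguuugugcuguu

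The values are normalized counts, which are read counts divided by a scaling factor per library. Reads recovered from them totalled 1293407 to 3329370 in iBAT and 1449708 to 6816555 in cWAT, a 5.27-fold span. Within a depot the libraries correlated at 0.971 to 0.9919 on the log2 scale (Pearson's r across miRNAs, which are not independent), and every pair differed by more than counting noise. cWAT 1 stood apart from the other cWAT libraries in muscle miRNAs, and immune miRNAs differed among all 3 cWAT libraries; these values are given with their results. A miRNA was called when limma's Benjamini-Hochberg adjusted p on log2(normalized count + 1) was under 0.05 over the 362 miRNAs tested. The other 123 had too few reads to be tested, with at most 38.08 normalized counts as a mean of either depot.

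Of the 362 miRNAs tested, 175 (48.3%) differed between the depots. Of these, 83 (22.9%) were higher in iBAT and 92 (25.4%) were lower. The difference was at least 1 on the log2 scale for 40 of the higher and 54 of the lower miRNAs, and the median over all tested miRNAs was 0.01. In 230 miRNAs (63.5%) the libraries of the depots did not overlap, called or not. The authors' deposited table of the same comparison has 194 of 473 miRNAs (41%) at an adjusted p under 0.05, and the 164 called both there and here had the same sign. With the recovered reads scaled to equal library totals instead (CPM), the median shifted to -0.28, and 57 miRNAs were called higher and 149 lower.

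**Figure D1:**
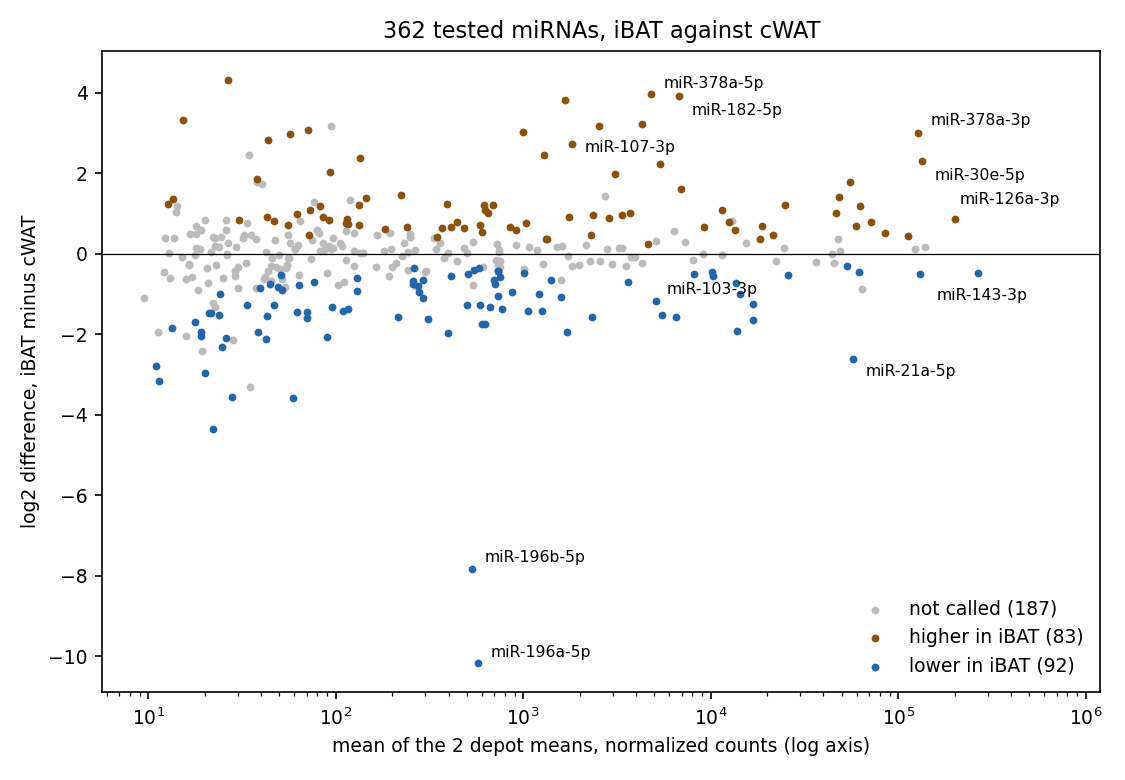
Each point is 1 of 362 tested miRNAs, with the mean of its depot means in normalized counts (log axis) against the log2 difference, iBAT minus cWAT; brown points were higher in iBAT (83), blue points lower (92) and grey points not called. miR-378a-3p and miR-30e-5p combined high levels with large differences, and miR-196a-5p, at 0 in every iBAT library, and miR-196b-5p lie far below the rest, both at heights that depend on the added count of 1.

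The miRNAs that fill the libraries were largely the same in both depots, in another order. Of the 10 with the highest means in each depot, 7 were shared, and these 10 held 54.8% ± 1.4 of the normalized counts in iBAT and 52.7% ± 2.3 in cWAT (SD, n = 3). In iBAT the leading miRNA was miR-126a-3p, which is made by endothelial cells, with 8.715% ± 0.1752. It was followed by miR-378a-3p with 7.551% ± 0.5101, miR-143-3p with 7.504% ± 0.306 and miR-30e-5p with 7.433% ± 0.3137. miR-126a-3p was above the other three in each library, while the ranges of miR-378a-3p, miR-143-3p and miR-30e-5p overlapped and their order is not resolved. All 3 libraries of miR-30e-5p lay above the next, miR-26a-5p. In cWAT miR-143-3p led with 12.86% ± 1.207 and lay above all others. miR-10b-5p (6.319% ± 1.126), miR-126a-3p (5.901% ± 0.2296) and miR-26a-5p (5.417% ± 0.2995) came next. miR-378a-3p, second by mean in iBAT, stood at place 23 in cWAT, and miR-30e-5p, at place 4 in iBAT, stood at place 16. miR-21a-5p moved the other way, from place 34 in iBAT to place 6 in cWAT.

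Among the miRNAs reported to promote brown fat or browning, 28 arms were tested, and 19 were higher in iBAT, 3 were lower and 6 were not called. Their median log2 difference was 1.16, beside 0.01 over all tested miRNAs. Their summed normalized counts were 557346.5 to 645709.9 in iBAT and 236882 to 245102 in cWAT. miR-196a-5p and both tested arms of miR-129 were the members lower in iBAT. miR-196a is known to promote browning of white fat, and why these members were lower was not tested. As CPM, 18 were higher and 5 lower. The list was drawn up with results of these data known, so its direction is a description, and so is that of the lists that follow. Counts of calls in each list are to be read beside the 22.9% higher and 25.4% lower over all tested miRNAs.

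miR-378a-3p had the largest share of these members in iBAT, whereas miR-26a-5p had it in cWAT. miR-378a is known as a regulator of mitochondrial metabolism, and miR-378a-3p and miR-378a-5p come from 1 hairpin. miR-378a-3p stood at 250869, 206495 and 220480 normalized counts in iBAT 1 to 3 and at 23274, 30146 and 32407 in cWAT 1 to 3. Every iBAT library was thus far above every cWAT library, and the mean was 7.898-fold higher (log2 difference 2.99 ± 0.14 SE, limma adjusted p = 9.54e-06). miR-378a-5p stood at 7650, 9429 and 10052 in iBAT and at 559.7, 558.8 and 602.3 in cWAT. At 15.77-fold it had the largest log2 difference of the higher miRNAs with a mean of at least 100 (3.97 ± 0.12, adjusted p = 1.77e-06). The related miR-378b, miR-378c and miR-378d, which resemble miR-378a-3p, differed by 3.08, 3.23 and 3.18, and as the assignment of reads among them is not known they may not be independent of it. Their sum with miR-378a-3p was 7.97% ± 0.55 of iBAT and 1.24% ± 0.23 of cWAT (SD, n = 3). RefSeq places Mir378b within the span of Msi2 (chr11:88352773-88352864), Mir378c within Samd4 (chr14:46954830-46954928) and Mir378d outside any gene (chr10:126710282-126710391).

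The miR-30 family, which has been reported to promote browning, was also much higher in iBAT. Of 11 tested arms, 9 were higher and none was lower (1 was lower as CPM), and the median log2 difference was 1.22. All arms together made 522205 to 613342 normalized counts in iBAT and 223890 to 238324 in cWAT, without overlap. miR-30e-5p stood at 242132, 210329 and 214570 in iBAT and at 41622, 45561 and 47499 in cWAT. The depots were widely separated, with a 4.953-fold higher mean in iBAT (2.31 ± 0.09, adjusted p = 6.04e-06). miR-30c-5p, with the same seed, was 3.478-fold higher (1.79 ± 0.09, adjusted p = 1.48e-05). miR-30a-5p, 1 base away from miR-30e-5p, stood at 144518, 123305 and 122564 in iBAT and at 99602, 88224 and 100328 in cWAT. Its libraries did not overlap either, but the difference was small (0.44 ± 0.10, adjusted p = 0.00979) and was not called as CPM (0.13, adjusted p = 0.225). miR-30b-5p (1.22 ± 0.12) and miR-30d-5p (0.69 ± 0.09) lay between. How reads were split between miR-30a-5p and miR-30e-5p is not known. Their sum was 11.8% ± 0.56 of iBAT and 5.83% ± 0.4 of cWAT as shares (SD, n = 3). In normalized counts the mean of the sum was 2.5-fold higher in iBAT. miR-30e-5p made 62.6% to 63.6% of that sum in iBAT and 29.5% to 34.1% in cWAT.

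The 3p arms of the family are each named for 1 genomic copy, though the level of an arm need not follow that of its copy. Mir30e (chr4:120772606-120772697) and Mir30c-1 (chr4:120769534-120769622), both within the span of Nfyc, gave miR-30e-3p and miR-30c-1-3p. miR-30e-3p stood at 5170, 4737 and 4826 in iBAT and at 1173, 1293 and 1258 in cWAT (1.98 ± 0.09, adjusted p = 7.86e-06). miR-30c-1-3p stood at 178, 148.8 and 126.5 in iBAT and at 35.42, 33.46 and 38.01 in cWAT (2.04 ± 0.17, adjusted p = 0.000134). Both arms were high in all iBAT libraries and low in all cWAT libraries. Mir30a (chr1:23272269-23272339) and Mir30c-2 (chr1:23291701-23291784), which RefSeq places outside any gene, gave arms with no such gap. miR-30c-2-3p stood at 360.9, 328.5 and 409.5 in iBAT and at 420, 361.4 and 403.9 in cWAT, where the libraries overlapped (-0.11 ± 0.13, adjusted p = 0.466; as CPM -0.41, adjusted p = 0.0303). miR-30a-3p differed by 0.15 ± 0.10 (adjusted p = 0.25). The other 3p arms, miR-30b-3p (0.75) and miR-30d-3p (1.473 in the authors' deposited table), were also called higher in iBAT. Higher 3p arms were thus not only miR-30e-3p and miR-30c-1-3p. The difference between the copies was itself not tested.

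**Figure D2:**
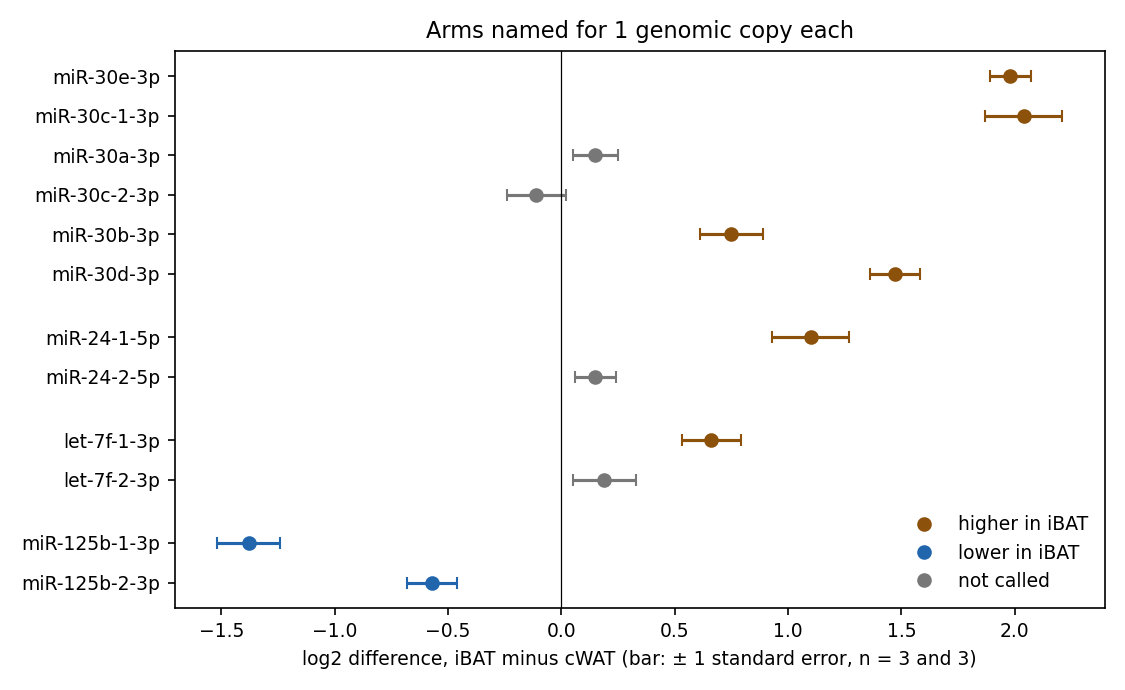
The points are log2 differences, iBAT minus cWAT, with bars of ± 1 SE (3 libraries a depot), of arms that are each named for 1 genomic copy; brown and blue points were called higher and lower in iBAT and grey points were not called. miR-30e-3p and miR-30c-1-3p lie near 2, miR-30b-3p and miR-30d-3p also lie above 0, and miR-30a-3p and miR-30c-2-3p lie near 0. The copies of miR-24, let-7f and miR-125b also lie apart.

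Arms named for single copies of other miRNAs also gave unequal values. miR-24-1-5p, from Mir24-1 within Aopep (chr13:63301208-63301275), was higher in iBAT (1.10 ± 0.17, adjusted p = 0.00211), whereas miR-24-2-5p, from Mir24-2 (chr8:84208815-84208921), was not called (0.15 ± 0.09, adjusted p = 0.209). The shared miR-24-3p differed by 0.37 ± 0.08 (adjusted p = 0.00819). let-7f-1-3p was higher in iBAT (0.66 ± 0.13, adjusted p = 0.00563) and let-7f-2-3p was not called (0.19 ± 0.14, adjusted p = 0.295). miR-24-3p and let-7f-1-3p were not called as CPM, at 0.07 and 0.36. miR-125b-1-3p (-1.38 ± 0.14) and miR-125b-2-3p (-0.57 ± 0.11) were both lower in iBAT, while the shared miR-125b-5p overlapped between the depots (-0.23 ± 0.13, adjusted p = 0.186) but was called lower without cWAT 3 (-0.36, adjusted p = 0.0275) and as CPM (-0.53). let-7f-2-3p was chosen after its values were seen. None of these differences between copies was tested.

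miR-193b and miR-365-1 share a locus on chromosome 16 (chr16:13449523-13449601 and chr16:13453840-13453926), which has been reported to be needed by brown fat cells in culture. miR-193b-3p stood at 10794, 7708 and 8036 in iBAT and at 1539, 2016 and 2118 in cWAT, a 4.679-fold higher mean in iBAT with no overlap (2.22 ± 0.18, adjusted p = 9.65e-05). miR-365-3p, which Mir365-2 on chromosome 11 can also give, was 2.129-fold higher (1.10 ± 0.15, adjusted p = 0.000969). The rare arm miR-365-1-5p, named after its values were seen, had 19.25, 11.45 and 21.09 normalized counts in iBAT and 2.02, 0 and 3.46 in cWAT and was too low to be tested. miR-365-2-5p was not called (-0.58 ± 0.41, adjusted p = 0.264). miR-193a-3p, a miRNA with the seed of miR-193b-3p from the locus of Mir365-2, was higher in iBAT by 0.72 ± 0.14 (adjusted p = 0.00616).

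All 3 members of the miR-183 cluster were higher in iBAT. The hairpins Mir182, Mir96 and Mir183 lie within 1 noncoding RNA gene, Mirc35hg (chr6:30165918-30169737); the cluster is best known from sensory cells, and miR-182 also from brown fat cell formation. miR-182-5p stood at 10419, 13116 and 14653 in iBAT and at 554.6, 953.6 and 1114 in cWAT (3.91 ± 0.27, adjusted p = 5.86e-05). miR-96-5p stood at 1946, 2995 and 4476 in iBAT and at 191.3, 257.6 and 191.1 in cWAT (3.81 ± 0.30, adjusted p = 9.65e-05). miR-183-5p stood at 1357, 2148 and 3084 in iBAT and at 342.1, 404.9 and 383.6 in cWAT (2.46 ± 0.28, adjusted p = 0.00044). No library overlapped between the depots, and in iBAT the 3 members ranked the libraries alike, lowest in iBAT 1 and highest in iBAT 3. Together they made 13741 to 22278 normalized counts in iBAT and 1090 to 1696 in cWAT, with means 12.3-fold apart.

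miR-455-3p, known to be induced in brown fat cells, varied between iBAT libraries. It stood at 690.4 in iBAT 1, at 2252 and 2452 in iBAT 2 and 3, and at 312.8, 182.4 and 124 in cWAT. The call (3.02 ± 0.55, adjusted p = 0.00408) held without iBAT 1, where the difference was 3.61. Its partner arm miR-455-5p was steadier, at 240.6, 187.6 and 256.6 in iBAT and 39.47, 38.48 and 51.49 in cWAT (2.38 ± 0.19, adjusted p = 9.65e-05). miR-203-3p (1.62 ± 0.13, adjusted p = 0.000115), miR-32-5p (1.09 ± 0.12) and miR-328-3p (0.67 ± 0.11) were also higher in iBAT. miR-26a-5p, among the most abundant miRNAs of both depots, did not pass the test (0.16 ± 0.08, adjusted p = 0.15).

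**Figure D3:**
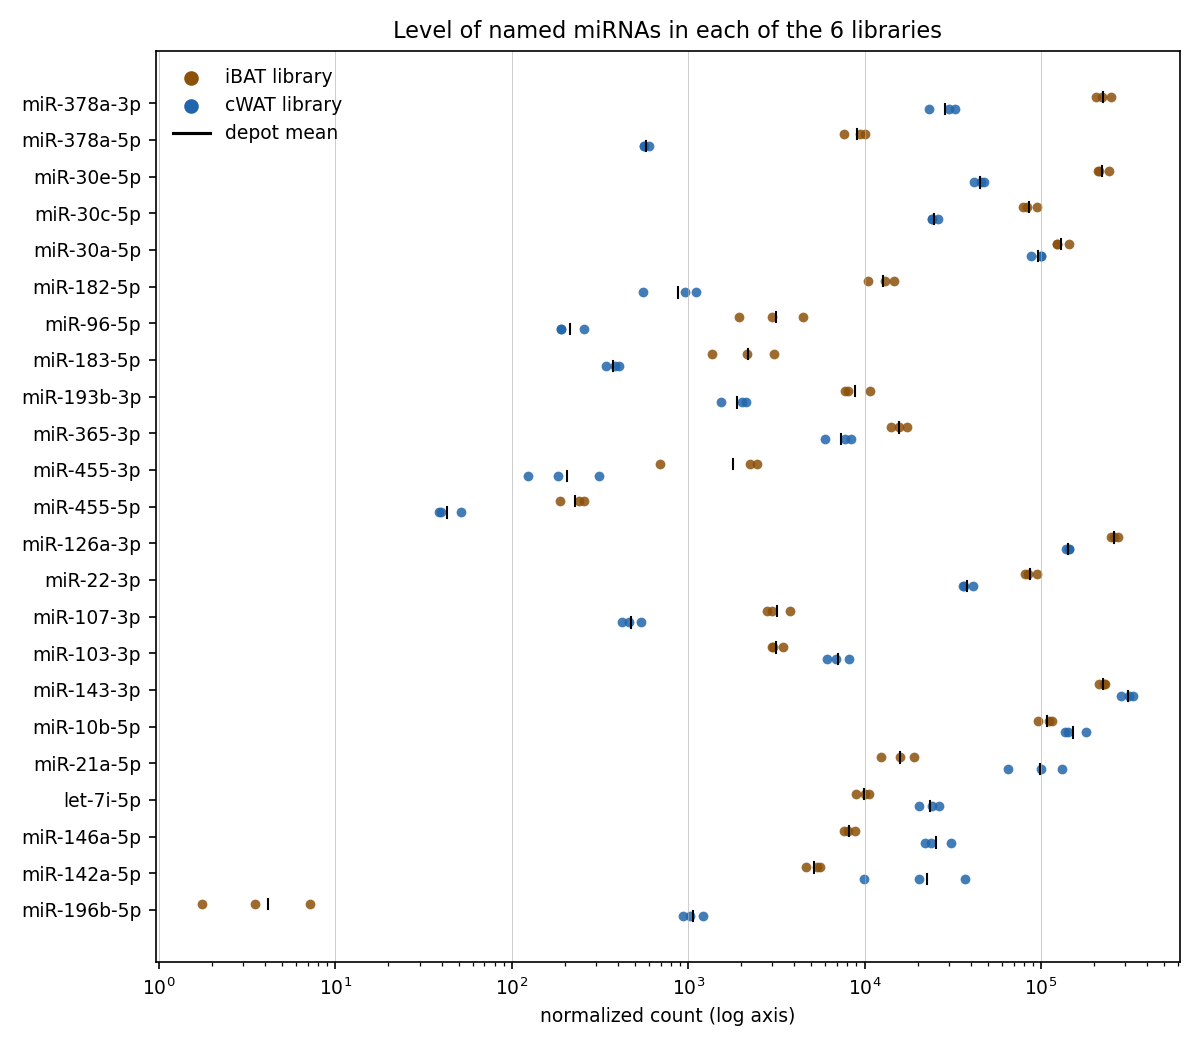
Normalized counts (log axis) of 23 miRNAs named in the text are shown for each library, iBAT in brown and cWAT in blue, with a black line at each depot mean. The depots are separated in every row shown, by much for miR-378a, miR-182 and miR-196b-5p and by little for miR-30a-5p and miR-143-3p, and iBAT 1 is low in miR-455-3p.

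Of the 20 tested arms reported to oppose browning, 2 (10%) were higher in iBAT, 5 (25%) were lower and 13 were not called. Over all tested miRNAs 22.9% were higher and 25.4% lower. The median of the 20 arms was -0.05, and as CPM 1 of them was higher and 9 were lower. The higher ones were miR-27b-3p (0.79 ± 0.08, adjusted p = 0.000308) and miR-27a-3p (0.47 ± 0.08), the latter not called as CPM (0.16). Both are known to repress adipogenic transcription factors. let-7i-5p (-1.25 ± 0.12), miR-199a-5p (-1.01 ± 0.18), miR-214-3p (-1.31 ± 0.27) and the miR-125b 3p arms were lower. miR-155-5p stood at 180.4, 164.7 and 193.3 in iBAT and at 172.1, 588.9 and 292.7 in cWAT. cWAT 2 and 3 lay above all iBAT libraries and cWAT 1 lay among them, and it was not called (-0.79 ± 0.41, adjusted p = 0.149), but without cWAT 1 it was called lower (-1.21, adjusted p = 0.0131).

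Among miRNAs reported to promote the formation of fat cells, 10 of 19 tested arms were lower in iBAT, 2 were higher and 7 were not called, with a median of -0.46. Their summed normalized counts were 316894 to 333744 in iBAT and 495920 to 561530 in cWAT, without overlap. miR-143-3p, the most abundant of them, stood at 228877, 230326 and 213233 in iBAT and at 313796, 285452 and 333440 in cWAT (-0.47 ± 0.08, adjusted p = 0.00375). Its cluster partner miR-145a-5p differed by -0.73 ± 0.09 (adjusted p = 0.000548). Both are also miRNAs of smooth muscle and fibroblasts. miR-148a-3p was lower by a small amount (-0.31 ± 0.09, adjusted p = 0.0226), and that call was lost without iBAT 2, without iBAT 3 or without cWAT 1 (adjusted p = 0.0762, 0.0867 and 0.0692). Of the 14 tested arms reported to oppose fat cell formation, 6 were higher and 4 lower in iBAT (2 lower without cWAT 2), with a median of 0.13. miR-22-3p, from a hairpin in the noncoding RNA Mir22hg, led the higher ones at 2.914% of iBAT and 1.564% of cWAT (1.20 ± 0.09, adjusted p = 9.65e-05). miR-130a-3p (-1.75 ± 0.12, adjusted p = 5.86e-05) and miR-224-5p (-1.74 ± 0.18, adjusted p = 0.000292) were lower. miR-363-3p was lower by -3.58 ± 1.21 with 1 iBAT library at 0 (adjusted p = 0.0453), and that call was lost without cWAT 2 or cWAT 3 (adjusted p = 0.136 and 0.0933). Without iBAT 1, the library at 0, its difference was -2.08.

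miR-103-3p and miR-107-3p, which are known to lower insulin sensitivity and which differ only by G22C, went in opposite directions. miR-107-3p stood at 3758, 2799 and 2970 in iBAT and at 424.1, 537 and 462 in cWAT (2.74 ± 0.15, adjusted p = 1.65e-05). miR-103-3p stood at 2997, 3017 and 3448 in iBAT and at 8177, 6925 and 6091 in cWAT (-1.16 ± 0.13, adjusted p = 0.000414). Neither overlapped between the depots. Their sum was 5816 to 6755 in iBAT and 6553 to 8601 in cWAT, which overlap, while as a share of the library it was 0.1984% to 0.2197% and 0.2782% to 0.3465%, which do not. miR-107-3p made 46.3% to 55.6% of that sum in iBAT and 4.93% to 7.2% in cWAT. RefSeq places Mir107 within Pank1 (chr19:34820687-34820773), Mir103-1 within Pank3 (chr11:35782396-35782481) and Mir103-2 within Pank2 (chr2:131288052-131288137); these genes encode pantothenate kinases, the first enzymes of coenzyme A synthesis.

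miRNAs of the Hox clusters, which lie among the genes that set position along the body axis, held the miRNAs with the lowest fitted log2 differences of all tested. Of 7 tested arms, 3 were lower in iBAT, 1 was higher and 3 were not called, with a median of -0.50; as CPM 5 were lower and none was higher. miR-196a-5p was at 0 in all iBAT libraries and at 1240, 1186 and 1029 in cWAT. Taking 3 reads per library as the floor (2.64 to 7.22 normalized counts in iBAT), it was at least 228-fold lower in iBAT (adjusted p = 1.38e-07). miR-196b-5p stood at 7.22, 1.76 and 3.51 in iBAT, from 7 reads in all, and at 1217, 1031 and 938.5 in cWAT (adjusted p = 9.73e-06). With the reads pooled over libraries it was 307-fold lower in iBAT, with an exact 95% interval of 149 to 763 that covers counting error only. Both were thus near or at 0 in brown fat. Mir196a-1 (chr11:96265164-96265265), Mir196a-2 (chr15:102973350-102973434) and Mir196b (chr6:52230081-52230165) lie on 3 chromosomes, so neither copy of miR-196a gave a listed read in iBAT. miR-10a-5p, from within Hoxb3 (chr11:96317165-96317274), overlapped between the depots (0.12 ± 0.10, adjusted p = 0.331). miR-10b-5p, from within the spans of Hoxd3 and Hoxd4 (chr2:74726070-74726137), was lower in iBAT (-0.50 ± 0.13, adjusted p = 0.0182), but not without iBAT 3 (adjusted p = 0.0623). As miR-10a-5p and miR-10b-5p differ by U12A alone, their sum is given too: it was 215400 to 253188 normalized counts in iBAT and 242015 to 310499 in cWAT, which overlap. As a share of the library, which is a CPM-like scale, it was 7.91% ± 0.47 of iBAT and 11.2% ± 1.7 of cWAT. miR-615-3p was not called (-0.38 ± 0.15, adjusted p = 0.0707), but was called lower without iBAT 1 (-0.53, adjusted p = 0.0111) and as CPM (-0.68).

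Markers of the other cells of a fat pad also differed between the depots. In whole tissue, fewer cells of a type and less of a miRNA per cell cannot be told apart, and the part of these cells in the other results was not tested. Of 6 endothelial arms, 2 were higher, 3 were lower and 1 was not called, with a median of -0.63. miR-126a-3p stood at 273165, 259453 and 248787 in iBAT and at 144799, 138524 and 145006 in cWAT (0.87 ± 0.07, adjusted p = 0.000109). miR-126a-5p, from the same hairpin within Egfl7 (chr2:26591357-26591429), differed more (1.41 ± 0.09, adjusted p = 4.43e-05). Both lay higher in every iBAT library. miR-221-3p (-1.43 ± 0.12) and miR-222-3p (-1.27 ± 0.19), which endothelial cells share with other cells, were lower.

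Immune miRNAs were lower in iBAT: 7 of 10 tested arms were lower, none was higher, and the median was -1.60. Their sum was 24797.5 to 27522 in iBAT and 46270, 101967 and 65593 in cWAT 1 to 3. Every cWAT library was above every iBAT library, with cWAT 2 the highest. miR-142a-5p, a miRNA of blood-borne cells, stood at 5572, 5349 and 4675 in iBAT and at 9894, 37214 and 20438 in cWAT (-1.92 ± 0.43, adjusted p = 0.00979). miR-146a-5p (-1.64 ± 0.14, adjusted p = 0.000146), a brake on innate signalling, and the myeloid miR-223-3p (-1.27 ± 0.15, adjusted p = 0.000535) were also lower. miR-150-5p, of lymphocytes, stood at 2500, 12728 and 6595 in cWAT 1 to 3 and at 8102, 7083 and 6616 in iBAT 1 to 3. The depots overlapped and it was not called (0.29 ± 0.53, adjusted p = 0.665), and without cWAT 1 the difference was -0.34. Without cWAT 2, 5 of the 10 arms were called lower, and without cWAT 1, 9 were.

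miRNAs of mesenchyme and fibroblasts were lower in iBAT in 9 of 11 tested arms, with none higher and a median of -0.62. miR-199a-5p stood at 7573, 10615 and 10521 in iBAT and at 21916, 20339 and 15481 in cWAT (adjusted p = 0.00409). miR-199b-3p differed by -1.52 ± 0.11 (adjusted p = 7.2e-05) and miR-214-3p by -1.31 ± 0.27 (adjusted p = 0.00706). miR-21a-5p, known from fibrosis and from growth of many cell types, stood at 12319, 15925 and 19174 in iBAT and at 131227, 100251 and 64711 in cWAT. The depots did not overlap, and it was 6.246-fold lower in iBAT (-2.61 ± 0.28, adjusted p = 0.000308). The other arm of that hairpin, miR-21a-3p, was lower too (-2.07 ± 0.26, adjusted p = 0.000741). RefSeq places Mir21a within the span of Vmp1 (chr11:86584067-86584158).

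The main muscle miRNAs were far lower in cWAT 1 than in the other 5 libraries. miR-1a-3p stood at 11244, 18215 and 10084 in iBAT, at 1107 in cWAT 1 and at 21657 and 16033 in cWAT 2 and 3. miR-133a-3p stood at 3125, 4331 and 2230 in iBAT, at 140.7 in cWAT 1 and at 3687 and 2960 in cWAT 2 and 3. Both were low in cWAT 1 alone and were not called (0.81 ± 1.06 and 1.43 ± 1.18), and without cWAT 1 the differences became -0.55 and -0.09. miR-206-3p, of muscle fibres, was at 0 in cWAT 1, and it was not called with all libraries (adjusted p = 0.131) but was called higher in iBAT without cWAT 1 (1.18, adjusted p = 0.0225). miR-499-5p, at 81.79, 106.6 and 40.42 in iBAT and 14.17, 3.35 and 14.51 in cWAT, was the only muscle arm of 8 called with all libraries (2.83 ± 0.60, adjusted p = 0.00738). Without cWAT 2 its difference was 2.22. The part of muscle RNA in the other results was not tested.

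The remaining marker lists held low levels or calls that depended on the setting. Of 3 red blood cell arms, miR-451a (0.59 ± 0.18, adjusted p = 0.0354) and miR-144-3p (0.67 ± 0.21, adjusted p = 0.0339) were higher in iBAT. Both calls were lost as CPM (adjusted p = 0.209 and 0.145), and both were lost without iBAT 1, iBAT 2 or cWAT 2 (adjusted p from 0.0634 to 0.109). That of miR-451a was also lost without cWAT 1 (adjusted p = 0.0652). Of 5 epithelial arms, miR-203-3p was higher in iBAT and 3 were lower (1 with all 6 depots in the fit). Among these, miR-200a-3p (-2.32 ± 0.35) and miR-200b-3p (-4.34 ± 0.92) had at most 55.21 normalized counts in a library. miR-375-3p was at 0 in all 6 libraries and miR-205-5p at 0 in all iBAT libraries. The value of miR-200b-3p was -5.39 without iBAT 2, the only iBAT library with reads of it. Of the liver markers, miR-122-5p stood at 0 to 14.06 in the 6 libraries, while miR-192-5p was higher in iBAT (0.89 ± 0.10, adjusted p = 0.000492). None of the 3 tested liver and gut arms was called with all 6 depots in the fit, against 2 higher and 1 lower here. Of 9 nerve arms, 2 (22.2%) were higher and 1 (11.1%) was lower, beside 22.9% and 25.4% over all tested miRNAs. Without iBAT 1 the counts of nerve arms were 1 and 0.

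**Figure D4:**
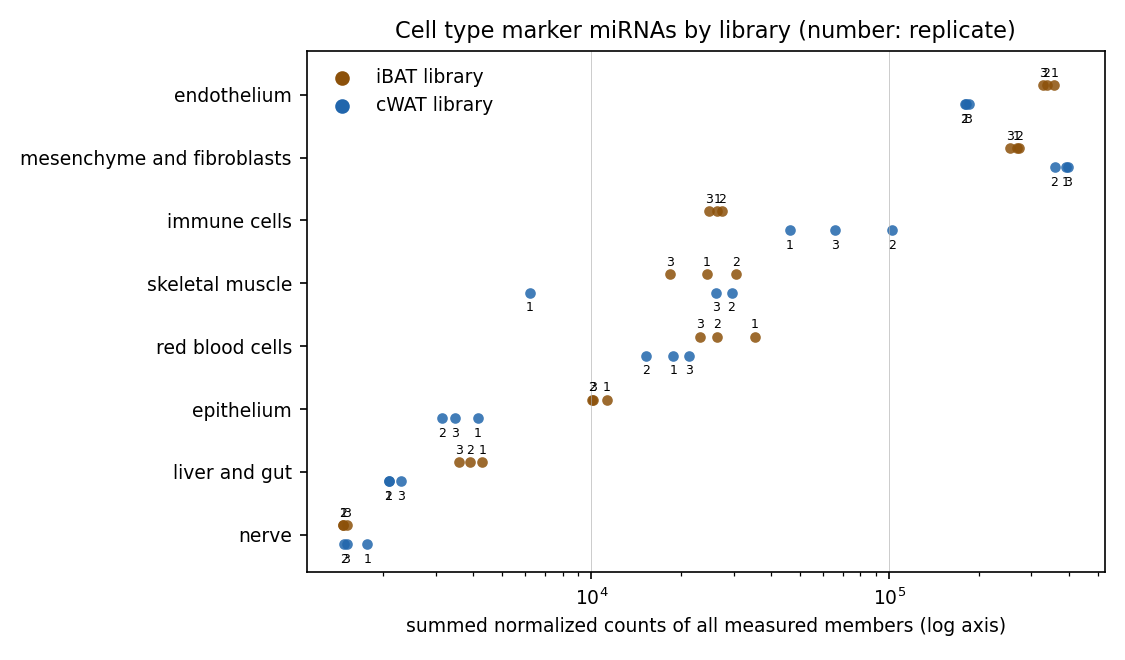
Each point is the sum of normalized counts (log axis) over all measured members of a cell type marker list in 1 library, iBAT in brown and cWAT in blue, with the replicate number beside it. Endothelial sums, which are mostly miR-126a-3p, are higher in all iBAT libraries, though 3 of the 6 tested endothelial arms were lower. Mesenchymal and immune sums are lower in all iBAT libraries, cWAT 1 is low in muscle miRNAs, and cWAT 2 is high in immune miRNAs.

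Within miRNA families and clusters the members did not all differ alike. The lists below hold 5p and 3p arms, and not all members of a list share a seed. Calls in both directions within a list thus need not fall within 1 seed. Of 20 tested let-7 arms, 6 (30%) were lower in iBAT, 3 (15%) were higher and 11 were not called. Over all tested miRNAs 25.4% were lower and 22.9% higher, so the share of let-7 arms called lower was near that of all. As CPM, 11 let-7 arms were lower and 1 was higher. let-7c-5p stood at 51731, 50739 and 53570 in iBAT and at 76759, 73908 and 63281 in cWAT (-0.45 ± 0.09, adjusted p = 0.00708). let-7i-5p, with the same seed, stood at 8990, 10112 and 10663 in iBAT and at 24108, 26407 and 20326 in cWAT (-1.25 ± 0.12, adjusted p = 0.00024). let-7f-5p (-0.01 ± 0.10, adjusted p = 0.915; as CPM -0.32, adjusted p = 0.0242) and let-7g-5p (0.06 ± 0.11, adjusted p = 0.671) overlapped between the depots. The matched miRNAs with the let-7 seed held 7.339% ± 0.4977 of iBAT and 10.83% ± 0.9162 of cWAT as shares. In normalized counts the sums over the let-7 list overlapped, at 219465 to 236762 in iBAT and 236724 to 286244 in cWAT. In the miR-29 family, known to repress collagens and other matrix genes, 4 of 5 arms were higher in iBAT and none was lower. miR-29a-3p stood at 63979, 58464 and 63575 in iBAT and at 29392, 34293 and 29100 in cWAT (1.01 ± 0.09, adjusted p = 0.000185). Of 11 arms of the miR-15/16 family, which restrains the cell cycle, 5 were higher and 2 lower (none lower without cWAT 2 or iBAT 1, and 5 lower as CPM). miR-16-5p was higher by 0.80 ± 0.12 (adjusted p = 0.00154). Of 13 arms of miR-17-92 and its paralogs, 2 were higher, 1 was lower and 10 were not called, while as CPM 0 were higher and 4 lower. In the miR-23/27/24 clusters 4 of 9 arms were higher and 1 was lower (2 and 3 as CPM). In the miR-181 family, known from lymphocytes, 1 of 6 arms was higher and 3 were lower (0 and 5 as CPM).

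Hairpins that lie close together are often cut from 1 transcript. RefSeq places tested arms of 22 clusters (hairpins on 1 strand at most 10000 bases apart), of which 9 held calls in the higher direction only, 6 in the lower direction only, 4 in both and 3 none. Names with more than 1 hairpin were left out. Only 13 clusters held at least 2 calls and so could show both directions. Many of them held just 2 or 3 calls, some from 2 arms of 1 hairpin. Whether calls shared a direction more often than by chance was not tested. In 9 of the 13 clusters the calls had 1 direction. On chromosome X these included the cluster of Mir322 and Mir503 (chrX:53047997-53054349), where 5 of 6 placed arms were higher and their median was 0.88, and the cluster of Mir500, Mir501, Mir362 and Mir532 (chrX:7237683-7248497), where 4 of 5 arms were lower and their median was -0.94. miR-322-5p stood at 3310, 3176 and 2900 in iBAT and at 1512, 1556 and 1724 in cWAT (0.97 ± 0.10, adjusted p = 0.000287). miR-501-3p stood at 445.1, 582.1 and 708.2 in iBAT and at 1590, 1767 and 1248 in cWAT (-1.42 ± 0.20, adjusted p = 0.00138). Clusters with both directions included that of Mirlet7e and Mir125a (chr17:17830352-17830879). There let-7e-5p was lower (-0.70 ± 0.10, adjusted p = 0.00139) and miR-125a-5p was higher in iBAT (0.52 ± 0.07, adjusted p = 0.00135). Of 44 tested arms of the large imprinted Dlk1-Dio3 cluster on chromosome 12, 37 were not called, 5 were lower and 2 were higher. These counts were not stable: as CPM 13 were lower and 0 higher, without cWAT 1 they were 2 and 4, and without iBAT 1 they were 2 and 0.

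The arm that a hairpin yields also differed. For 99 hairpins with both arms tested, the ratio of the 5p to the 3p arm differed in 23 (23.2%), toward the 5p arm in iBAT in 10 and toward the 3p arm in 13. Within a hairpin such a ratio hardly depends on the scaling of the libraries, except where an arm is so rare that the added count of 1 matters. The ratio for miR-9 (log2 5p over 3p) was 1.18 ± 0.06 in iBAT and 2.37 ± 0.17 in cWAT (SD, n = 3; difference -1.19 ± 0.14 SE, adjusted p = 0.0057), at few counts an arm. The ratio for miR-335 was 4.16 ± 0.22 and 2.78 ± 0.14 (1.38 ± 0.17, adjusted p = 0.0057), since miR-335-3p was lower in iBAT (-1.63 ± 0.18) while miR-335-5p was not called (-0.25 ± 0.16, adjusted p = 0.225; as CPM -0.55, adjusted p = 0.0254). The ratios for let-7b (-1.08 ± 0.13, adjusted p = 0.0057) and miR-125a (0.93 ± 0.13, adjusted p = 0.00592) differed as well. miR-872 changed its more abundant arm: the log2 ratio was -0.83, -0.96 and -1.18 in iBAT and 0.18, 0.06 and 0.08 in cWAT (-1.10 ± 0.14, adjusted p = 0.0057). miR-1981, named after its values were seen, was the other called hairpin to do so (-1.41 ± 0.27, adjusted p = 0.0134). The number called fell to 14 without cWAT 2.

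**Figure D5:**
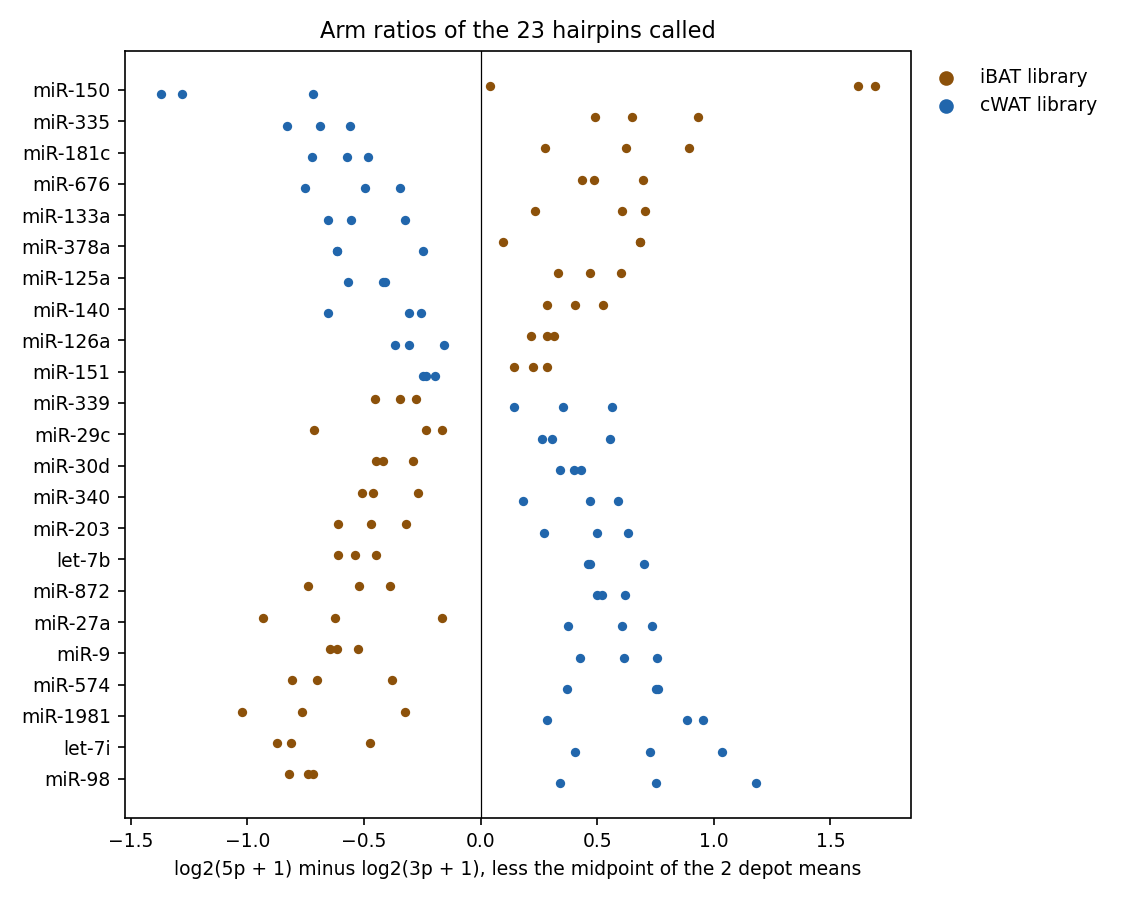
For each of the 23 hairpins called, the log2 ratio of the 5p to the 3p arm is shown for every library, iBAT in brown and cWAT in blue, less the midpoint of the depot means of that hairpin. The libraries of the depots do not overlap for any of the 23, nor do they for some hairpins that were not called, such as miR-708 and miR-30b. A single iBAT library lies apart from the others for miR-150 (iBAT 2) and for miR-378a (iBAT 1). The 3p arm of miR-150 is rare in iBAT, so its ratio depends on the added count of 1.

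Some of the miRNAs with large differences or high levels stood outside the groups above. miR-1941-3p stood at 98.63, 108.3 and 96.65 in iBAT and at 12.15, 8.36 and 16.93 in cWAT (2.97 ± 0.28, adjusted p = 0.000185). miR-34c-5p, a target of p53, stood at 125.1, 191.1 and 170.5 in iBAT and at 729.8, 660.8 and 511.8 in cWAT (-1.97 ± 0.20, adjusted p = 0.000292). miR-99a-5p, among the 10 most abundant in cWAT, ranged from 27059 to 59752 in iBAT and from 40358 to 116136 in cWAT. These ranges overlapped through cWAT 3 and it was not called (-0.88 ± 0.44, adjusted p = 0.142), but without cWAT 3 it was called lower (-1.34, adjusted p = 0.0213).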

How the data were processed

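RNA that keeps the small species was isolated from mouse fat pads, made into TruSeq Small RNA libraries and sequenced, per the labels' protocols. The authors deposited a table of normalized counts (a signal that is never negative: reads divided by a size factor per library), and this table also holds the authors' log2 fold changes and p-values of each pair of depots, per the file headers. The submitters' processing notes name DESeq2, DESeq and kallisto 0.45.0 with GRCm38 and mm10, without a role; how miRNA reads were aligned and counted is not given in those notes or labels. Dividing each value by what 1 read is worth gave whole reads within 0.02 for 100% of values. The smallest value was taken as 1 read in 3 libraries and as 2 reads in 3, so a listed 0 may stand for a single read, and 3 reads were taken as the floor.

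edgeR's (4.0.16) filter on the recovered reads left 362 of 485 miRNAs, and limma 3.58.1 (R 4.3.3; moderated variances with a trend, 4 residual degrees of freedom, two-sided) compared the depots on log2(normalized count + 1), which understates the change of low miRNAs. Benjamini-Hochberg adjustment ran over all miRNAs tested, and a value after ± is the SE of a log2 difference unless called SD. Arm ratios were fitted the same way without the trend. Alternatives included edgeR's and DESeq2's (1.42.0) count tests, other scalings, filters and pseudocounts, and each library left out. The tests were also run on simulated data with known changes, with the same assumed spread for every miRNA, which does not copy the spread between these libraries. miRNAs named include the 12 largest called differences in each direction with at least 100 normalized counts and no overlap between the depots. For these the lack of overlap follows from the rule. Also named are the 10 most abundant, the 10 largest differences in share and the 5 arm ratios with the smallest adjusted p. List members were named if they had at least 100 normalized counts or define a cell type. The members and lists were chosen with earlier results of these data known. Loci are from RefSeq (GRCm38.p6), and no exon models were used.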

Additional observations from a re-analysis of the deposited data

How the results depend on the processing

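Of 115 miRNAs tracked by name, 91 were called, and 76 of these kept their call in every alternative they entered; none reversed past the threshold. The total of 175 calls became 163 with DESeq2, 175 with edgeR, 174 with TMM scaling and 206 as CPM, of which 171, 171 and 149 were shared with the limma calls for edgeR, TMM and CPM. The count lower in iBAT, 92, became 149 as CPM, and 60 when only 213 miRNAs with a mean of at least 100 normalized counts were tested. Leaving out each library in turn gave 140 to 166 calls, 67 to 80 higher and 70 to 87 lower. The 23 arm ratios called became 14 to 22 with a library left out, fewest without cWAT 2.

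The labels do not say whether the replicate numbers pair the libraries. The deviations of same-numbered libraries correlated at -0.148, 0.083 and -0.308, and not every library correlated best with its own number. Deviations from means of 3 libraries are too few to tell whether same-numbered libraries share an animal. With the replicate number as a block, limma called 140 miRNAs (139 shared) and 7 arm ratios, and edgeR called 139 miRNAs.

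No label ties a library to an animal. The smallest library held 1293407 reads, and miRNAs under about 3 reads in every library could not be compared.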
